A study of Mus musculus with 6 samples.

Results

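Interferon-induced genes were followed in mouse bone marrow after lethal irradiation and rescue with cells. With earlier results of these data known, 42 genes were chosen as a gene module by name, as receptors, regulators and targets of interferon. Of these, 40 were measured with 1 probe each, among 13831 genes named on the array (14632 of its 19801 probes), whereas Oas2 and Bst2 had no probe that could be assigned to them. They were sorted by role into 5 receptors and signal brakes, 4 transcription factors, 11 type I antiviral genes (the Ifit, Oas and Mx families, Isg15, Rtp4 and Irf7), 4 other antiviral effectors, 5 RNA sensors and their partners, 2 peptide transporters, and 9 interferon gamma GTPases and chemokines (the Gbp and Irg families, Tgtp1, Cxcl9 and Cxcl10).

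All mice were female and 6 to 10 weeks old, labelled C57BL/6J, with recipients given as C57BL/6J-CD45.1 and cell donors as male C57BL/6J in the methods, and total RNA of pooled bone marrow was hybridized to 1-colour CodeLink UniSet 20K bioarrays, glass slides on which each spot of DNA captures the transcript of a mouse gene. The BM group was marrow of mice that had received no radiation and no cells, the HSC group had received 9.5 Gy and whole bone marrow cells, which include hematopoietic stem cells, and the MSC group had received 9.5 Gy and cultured mesenchymal stroma cells (MSCs) in place of marrow. Each group had 2 arrays, each of its own pool, with 2 mice per pool in the BM and HSC groups and 3 in the MSC group. The time of sampling is not settled, since 21 days stands in the methods and 7 months in the description of the series, and irradiated mice without cells were not among the arrays, so that radiation and the transplanted cells cannot be told apart in either recipient group against BM.

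Interferons are signal proteins made on infection or tissue damage. The type I interferons signal through Ifnar1 and Ifnar2 to a complex that binds an interferon-stimulated response element (ISRE) and drives antiviral genes, whereas interferon gamma, made mainly by T cells and NK cells, signals through Ifngr1 to the gamma-activated site (GAS) and drives the guanylate-binding and immunity-related GTPases and the chemokines Cxcl9 and Cxcl10. The separation is not strict, since many of these genes answer to both kinds of interferon, and in marrow interferons are known to act on hematopoietic stem cells themselves.

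Values are log2 intensities after background correction and quantile normalization, where a difference of 1 stands for a 2-fold change, and levels of different genes cannot be compared because each probe has its own brightness. A probe counted as above background where the scanner software had not marked it as low, which was so for 11072 to 12510 probes per array and for 8848 on all 6. Spots were at the median 2.10 to 2.69 times as bright as the slide around them, and 139 to 181 probes per array were saturated, none of them a spot of an interferon-induced gene. Of the 40 genes, 25 were above background on all 6 arrays, 14 on 3 to 5, and Ifit2 on none. The 3 pan-leukocyte genes with a value on all arrays were above background on every array, as were 8 of the 9 such neutrophil genes. The limma p-values below set a group difference against the spread between arrays of a group, estimated over all 6 arrays. Each pool was on 1 array, so the spread between mice and that between arrays cannot be told apart.

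Among the 25 interferon-induced genes above background on all 6 arrays, which the filter could not favour in any group, 12 had all 4 recipient arrays above both BM arrays and 0 had them below. Over all 8848 probes above background everywhere, the shares were 5.61% above and 5.21% below. The 12 genes were the antiviral genes Ifit1, Ifit3, Oasl1, Rtp4 and Irf7, the GTPases Tgtp1, Irgm1 and Ifi47, the chemokine Cxcl9, the RNA sensor Ifih1 and the signal brakes Socs1 and Usp18. The means of 17 of the 25 genes lay in the order BM, HSC, MSC from low to high. Of 34 interferon-induced genes with a value on all arrays and at least 1 group in which both arrays were above background, 15 had all 4 recipient arrays above both BM arrays and 0 had them below, where 5.8% and 5.7% of the 10879 such probes did. The means of 19 of the 34 lay in the order BM, HSC, MSC (16.3% of these probes). Among the 15, Gbp2 and Ifi44 had both arrays above background only in the MSC group, and Oas1a only in the recipient groups. These counts over the 34 are therefore a description of the genes that passed this filter.

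**Figure D1:**
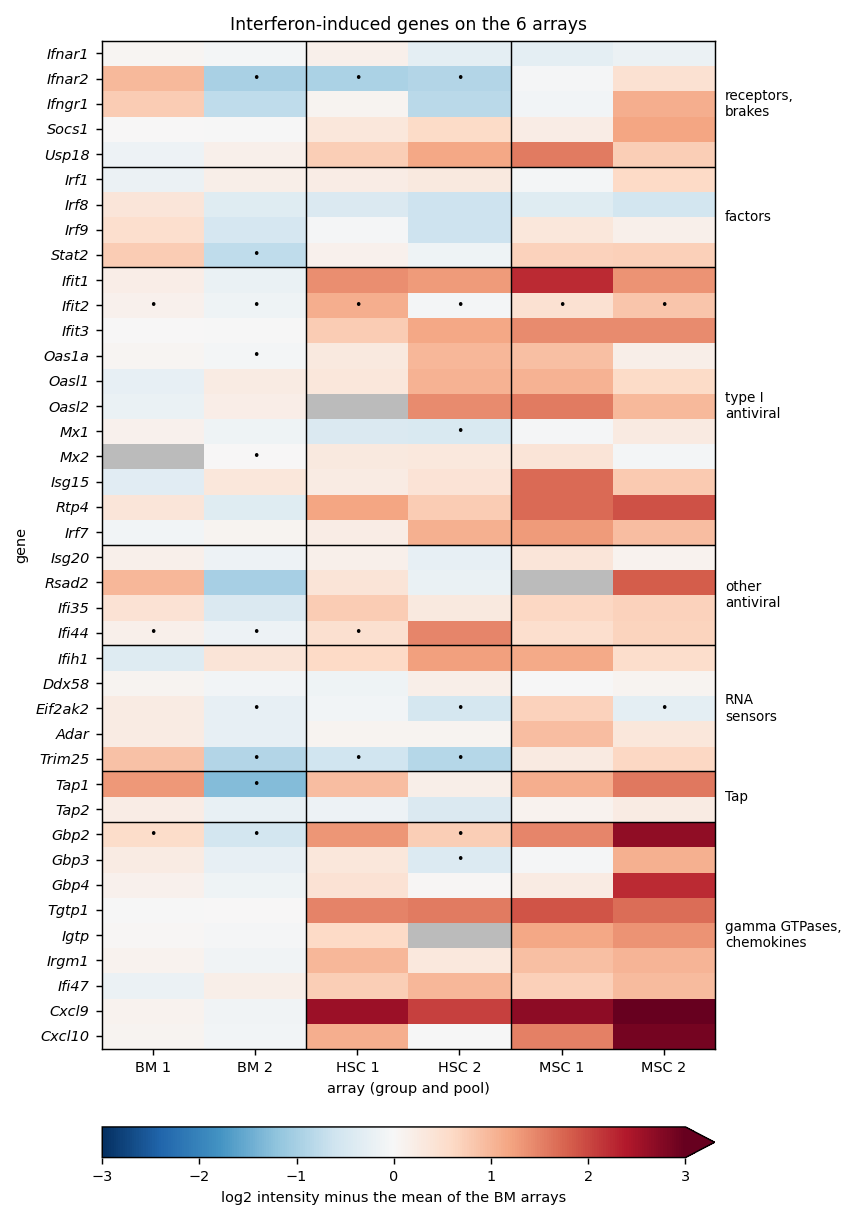
Colour gives the log2 intensity of each interferon-induced gene (rows, by role) on each array (columns) minus the mean of the BM arrays of that gene, from blue (lower) to red (higher), with the scale ending at 3. Dots mark spots not above background and grey marks spots left out as defective. Cxcl9, Tgtp1, Ifit1, Ifit3 and Rtp4 are red in all 4 recipient columns, and Gbp4 and Cxcl10 are darkest on MSC replicate 2.

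The marrow of MSC recipients was compared with unirradiated BM to ask how far these genes stood from their level in untreated marrow. Tgtp1 and Cxcl9 rose, and no interferon-induced gene fell. With limma over all 6 arrays and Benjamini-Hochberg adjustment, 2 of 38 tested genes passed an adjusted p of 0.05 (0.43% of 11861 probes passed in either direction and 0.152% as higher), and both belong to the interferon gamma group. Among the 25 genes above background on all arrays, 17 had both MSC arrays above both BM arrays and 1, Ifnar1, had them below, against 19.7% and 22.6% of the 8848 probes, and their median difference was 0.83. A log2 fold change above 0 was found for 36 of the 38, with Ifnar1 and Irf8 as the exceptions, against 51.1% of all tested probes. The median over the 38 genes was 0.75, and that over all tested probes 0.0096. At an unadjusted p under 0.05 there were 15 genes higher and 0 lower, where 5.39% and 7.01% of all probes were. Both MSC arrays lay above both BM arrays in 22 of 36 genes with all these values and below in 1, against 20.5% and 21.9% of all probes. To be tested, a probe needed 1 group of the comparison with both of its arrays above background, and 8 of the 40 genes met this only through the MSC group and 1 only through BM. The counts over the 38 are therefore a description of the genes that passed this filter.

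Tgtp1, an interferon gamma-induced GTPase of the immunity-related family that acts against parasites inside cells, gave 12.33 and 12.34 in BM, 13.84 and 13.91 in HSC, and 14.21 and 14.02 in MSC recipients. The groups did not overlap, and the recipient arrays were more than 1 unit above BM. The log2 fold change of MSC against BM was 1.78 ± 0.20 (SE, n = 2 arrays per group, limma adjusted p = 0.0244), which is 3.44-fold. The gene is nearly identical to its neighbour Tgtp2, so the probe may read both. The call was lost when any single array was left out, with an adjusted p from limma between 0.0517 and 0.0757 and a log2 fold change between 1.67 and 1.89.

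Cxcl9, a chemokine that draws activated T cells to tissue under interferon gamma, gave 9.19 and 8.99 in BM, 11.66 and 11.15 in HSC, and 11.77 and 13.18 in MSC recipients. All 4 recipient arrays lay above BM, with MSC replicate 2 the highest. The log2 fold change of MSC against BM was 3.38 ± 0.45 (SE, n = 2 arrays per group, limma adjusted p = 0.0424), which is 10.4-fold. Without MSC replicate 2 it was 2.71, with an adjusted p of 0.0617 from limma. Over the leave-one-out fits the adjusted p lay between 0.0130 and 0.100, and only the fit without MSC replicate 1 kept the call.

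The other GTPases and chemokines did not pass the adjusted test. Cxcl10, which binds the same receptor as Cxcl9, gave 8.39 and 8.21 in BM, 9.38 and 8.30 in HSC, and 9.80 and 11.17 in MSC recipients. The HSC arrays overlapped BM, and both MSC arrays lay above all others. Gbp2, a guanylate-binding protein that attacks the vacuoles of parasites, was not above background on either BM array and gave 8.21 and 7.63 in HSC and 8.37 and 9.56 in MSC recipients, with the HSC replicate 2 spot below background. It was at least 2.80-fold higher in MSC recipients than in BM, as the mean of the MSC arrays over the higher of the BM spot and the lowest level above background on that array (limma adjusted p = 0.215). Gbp4, of the same family, gave 8.95 and 8.68 in BM, 9.24 and 8.86 in HSC, 9.07 on MSC replicate 1 and 11.05 on MSC replicate 2, so that only 1 array stood apart. Igtp, an immunity-related GTPase, gave 9.14 and 9.05 in BM, 9.70 on the HSC array that was kept, and 10.26 and 10.43 in MSC recipients. These arrays lay in 3 separate steps, with 1 array in the middle. Irgm1 and Ifi47, of the same GTPase family, had all 4 recipient arrays above BM, whereas Gbp3 overlapped between groups. All 9 genes of the interferon gamma group had a log2 fold change above 0 in MSC against BM, from 0.51 to 3.38, and the 2 calls were the only ones among them. Of the 9, Gbp2 met the filter only through the MSC group. The 6 genes above background on all arrays were all above 0 (49.6% of the 8848 probes were), with a median difference of 1.51.

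Rtp4, an interferon-induced chaperone of receptors, gave 8.92 and 8.21 in BM, 9.74 and 9.33 in HSC, and 10.28 and 10.47 in MSC recipients. The 3 groups did not overlap. The log2 fold change of MSC against BM was 1.81 ± 0.30 (SE, n = 2 arrays per group, limma adjusted p = 0.0821), and that of HSC against BM was 0.97 ± 0.29. Ifit3, an antiviral protein with tetratricopeptide repeats, gave 9.03 and 9.01 in BM, 9.78 and 10.18 in HSC, and 10.44 on both MSC arrays. Its groups were also separate, with a log2 fold change of 1.42 ± 0.22 between MSC and BM (limma adjusted p = 0.0664). Ifit1, which binds viral RNA that lacks the cap mark of the host, gave 9.54 and 9.14 in BM, 10.73 and 10.63 in HSC, and 11.57 and 10.69 in MSC recipients. Its recipient arrays lay above BM, and the HSC arrays overlapped the lower MSC array.

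Isg15, a ubiquitin-like protein that is joined to other proteins on interferon signalling, gave 7.91 and 8.60 in BM, 8.49 and 8.66 in HSC, and 9.96 and 9.04 in MSC recipients. Only the MSC arrays stood above the rest, and BM and HSC overlapped. Irf7, the transcription factor that amplifies type I interferon production, gave 13.72 and 13.88 in BM, 14.03 and 14.86 in HSC, and 15.07 and 14.72 in MSC recipients. Its recipient arrays lay above BM and overlapped with each other. Mx1, an antiviral GTPase whose protein is defective in C57BL/6 mice, gave 8.36 and 8.12 in BM, 7.80 and 7.78 in HSC, the second not above background, and 8.21 and 8.51 in MSC recipients. The HSC arrays were the lowest, and MSC overlapped BM. All 10 tested type I antiviral genes had a log2 fold change above 0 in MSC against BM, from 0.12 for Mx1 to 1.81 for Rtp4. Of these, Oas1a and Mx2 met the filter only through the MSC group. The 6 genes above background on all arrays were all above 0 (49.6% of the 8848 probes were), with a median difference of 1.33. None of the 10 passed the adjusted test, and 7 were higher at an unadjusted p under 0.05 (5.39% of all probes were higher and 7.01% lower). The median over the 10 was 1.17, and that over all tested probes 0.0096. Ifit2 was not tested in any comparison, because it was above background on no array.

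**Figure D2:**
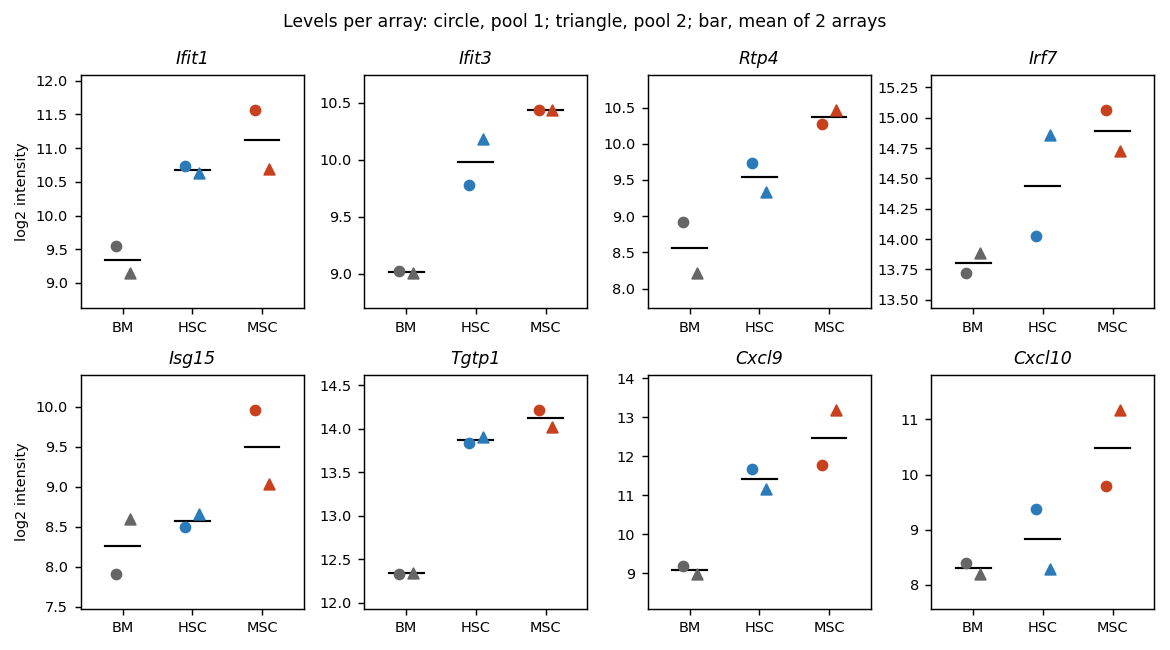
Log2 intensity (vertical axes, each with its own range) of 8 interferon-induced genes in the BM, HSC and MSC groups, with circles for pool 1, triangles for pool 2 and a bar for the mean of 2 arrays. Tgtp1, Cxcl9, Rtp4, Ifit1, Ifit3 and Irf7 have all recipient arrays above BM, while in Isg15 and Cxcl10 the HSC arrays overlap BM.

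The marrow of HSC recipients was compared with BM to ask what was seen after the same dose and whole marrow cells. None of 34 tested interferon-induced genes passed the adjusted test (0.0359% of 11153 probes passed), and 10 had an unadjusted p under 0.05, all of them higher in HSC (3.03% of all probes were higher and 2.34% lower at this limit). A log2 fold change above 0 was found for 25 of the 34, against 50.8% of all tested probes. Cxcl9 had the largest log2 fold change, 2.31 ± 0.44 (SE, limma adjusted p = 0.390), and Tgtp1 followed with 1.53 ± 0.20 (limma adjusted p = 0.153). Oasl2, with 1 HSC array kept, and Ifit1 came next, with 1.42 and 1.34. Of the genes with values on all arrays compared, 14 of 31 had both HSC arrays above both BM arrays and 2, Irf8 and Mx1, had them below (20.4% and 16.2% of all probes). Of the 34 genes tested here, 4 met the filter only through the HSC group and 4 only through BM. Over the 25 genes above background on all arrays, 13 were separated upward and 1 downward, against 20.7% and 14.8% of the 8848 probes. Their median difference was 0.52, and that of the 8848 probes 0.013. The median log2 fold change was 0.67 over the type I antiviral genes and 0.63 over the tested GTPases and chemokines, and over all tested probes it was 0.0053. This comparison and that of MSC against BM use the same BM arrays, so a low BM value lifts both, and the 2 sets of values are not independent.

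MSC recipients were compared with HSC recipients, the contrast of the transplanted cells at equal dose. None of 38 tested interferon-induced genes passed (0.48% of 11660 probes passed), with 0.196 for Cxcl10 as the smallest limma adjusted p, and 5 had an unadjusted p under 0.05, all higher in MSC (7.01% of probes were higher and 9.91% lower at this limit). These 5 were Cxcl10 (log2 fold change 1.65 ± 0.51), Rtp4 (0.84 ± 0.30), Mx1 (0.57 ± 0.22), Isg15 (0.92 ± 0.37) and Igtp (0.65 ± 0.26). A missed threshold with 2 arrays per group does not show that the recipient groups were alike. Above 0 were 31 of the 38 log2 fold changes (51.5% of all probes). The median over the 38 genes was 0.46, and that over all tested probes 0.016. In 15 of 35 genes both MSC arrays lay above both HSC arrays and in 0 below (24.8% and 26.5% of all probes). Of the genes tested here, 8 were above background on both arrays only in the MSC group. Over the 25 genes above background on all arrays, 9 were separated upward and 0 downward, against 22.3% and 28.4% of the 8848 probes. The median difference of these 25 genes was 0.30, and that of the 8848 probes -0.013. The methods' t-test, with limits of 0.01 for p and 2.5 for the ratio, picked 0 of 35 interferon-induced genes and 34 of 10852 probes, and at an unadjusted p under 0.05 it picked 3 of the 35 genes and 1226 of the 10852 probes, with 0 left after Benjamini-Hochberg adjustment.

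**Figure D3:**
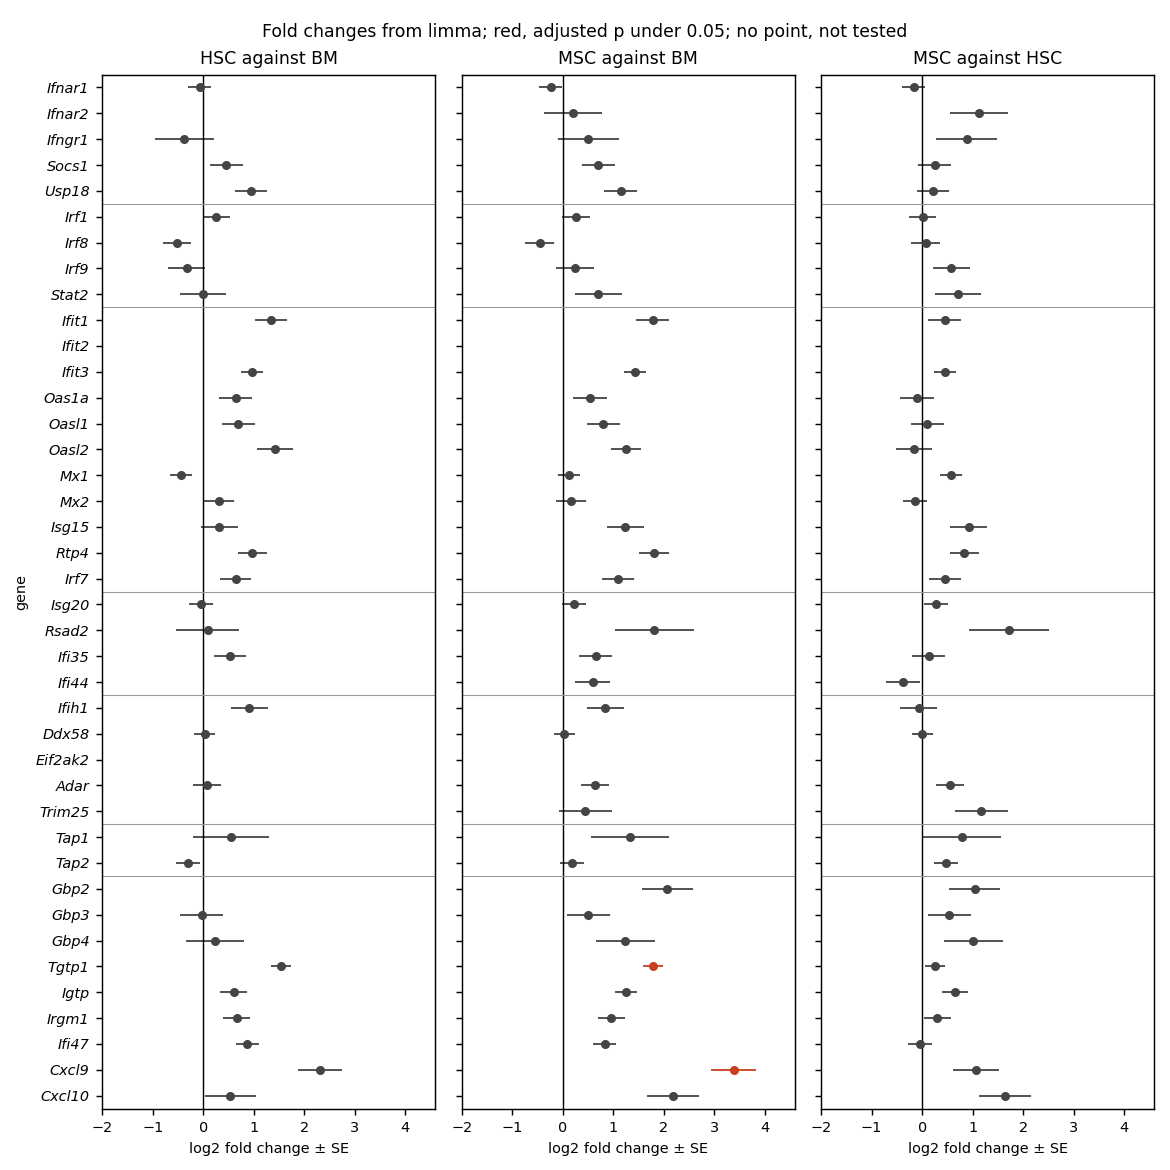
Log2 fold change with its standard error (horizontal axes) for each tested interferon-induced gene, by role, in HSC against BM, MSC against BM and MSC against HSC, from limma over 6 arrays. Red points have an adjusted p under 0.05, which only Tgtp1 and Cxcl9 in MSC against BM reach, and most points of MSC against BM lie right of 0.

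None of the receptors and signal brakes passed the adjusted test. Ifnar1, the chain shared by all type I interferons, gave 10.42 and 10.30 in BM, 10.50 and 10.07 in HSC, and 10.07 and 10.18 in MSC recipients, and its range over all arrays was smaller than a 2-fold change. Ifnar2, its partner chain, gave 9.02 on BM replicate 1, 8.02 and 8.51 in MSC recipients, and was below background on the other BM array and on both HSC arrays. It was at least 1.68-fold higher in MSC than in HSC recipients (limma adjusted p = 0.368). Ifngr1, the binding chain of the interferon gamma receptor, gave 11.45 and 9.95 in BM, 10.77 and 9.88 in HSC, and 10.62 and 11.79 in MSC recipients. The pools of each group differed by as much as the group means did, and all groups overlapped. Socs1, which shuts off receptor-bound kinases, gave 9.49 and 9.46 in BM, 9.82 and 10.04 in HSC, and 9.70 and 10.66 in MSC recipients, with the recipient arrays above BM. Usp18, which removes Isg15 from proteins and dampens the type I receptor, gave 10.17 and 10.46 in BM, 11.04 and 11.47 in HSC, and 11.88 and 11.05 in MSC recipients. Its recipient arrays lay above BM, with a log2 fold change of 1.15 ± 0.32 between MSC and BM (limma adjusted p = 0.261).

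Of the transcription factors, Stat2 and Irf9 belong to the complex on the ISRE. Stat2 gave 8.83 and 7.28 in BM, the second not above background, 8.18 and 7.92 in HSC, and 8.75 and 8.77 in MSC recipients. Irf9 gave 10.26 and 9.27 in BM, 9.74 and 9.14 in HSC, and 10.11 and 9.91 in MSC recipients. In both genes MSC lay above HSC and overlapped BM. Irf8, a factor of monocytes, plasmacytoid dendritic cells and B cells, gave 10.71 and 9.97 in BM, 9.90 and 9.73 in HSC, and 9.99 and 9.78 in MSC recipients. The HSC arrays lay below BM, and MSC overlapped both other groups. Irf1, an early target of interferon gamma, ranged from 11.59 to 12.36 over all arrays.

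None of the other effectors and RNA sensors passed the adjusted test. Rsad2, known as viperin, an enzyme that makes a chain-ending nucleotide, gave 11.76 and 9.77 in BM, 11.15 and 10.57 in HSC, and 12.58 on the only MSC array kept. Its log2 fold change of 1.72 ± 0.78 in MSC against HSC thus came from 1 MSC array, and the BM arrays alone differed by more. Ifi44, an interferon-induced protein of the cytoplasm, was below background on both BM arrays and on HSC replicate 1, gave 8.87 on HSC replicate 2, and 7.92 and 8.07 in MSC recipients, at least 1.37-fold higher than BM (limma adjusted p = 0.542). Isg20, an RNA-degrading enzyme, ranged from 13.96 to 14.56 over all arrays with overlap of all groups.

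Ifih1 and Ddx58 encode the helicases MDA5 and RIG-I, which sense viral RNA. Ifih1 gave 11.88 and 12.66 in BM, 12.87 and 13.50 in HSC, and 13.42 and 12.81 in MSC recipients, whereas Ddx58 ranged only from 12.81 to 13.11. The recipient arrays of Ifih1 lay above BM, and those of Ddx58 overlapped it. Adar, an enzyme that edits double-stranded RNA, gave 10.16 and 9.69 in BM, 10.01 on both HSC arrays, and 10.85 and 10.27 in MSC recipients, which were the highest. Trim25, a ubiquitin ligase that activates RIG-I, gave 9.28 on BM replicate 1 and 8.66 and 9.02 in MSC recipients, and was below background on the other 3 arrays, so that MSC was at least 2.25-fold above HSC (limma adjusted p = 0.325) and overlapped BM. Eif2ak2, the kinase PKR that stops translation, was above background on 1 array of each group and was not tested.

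Tap1 and Tap2 form the transporter that loads peptides onto MHC class I molecules. Tap1 gave 9.66 and 7.06 in BM, the second not above background, 9.28 and 8.53 in HSC, and 9.45 and 9.95 in MSC recipients. Tap2 gave 11.18 and 10.75 in BM, 10.80 and 10.52 in HSC, and 11.07 and 11.20 in MSC recipients. In both genes MSC lay above HSC and overlapped BM.

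The 2 MSC pools differed in which kind of gene was high. Of the 10 type I antiviral genes above background in both pools, 8 were higher in pool 1, with a median difference of -0.46 for pool 2 minus pool 1. The 8 include Ifit3, with a difference of only -0.0004. Of the 9 GTPases and chemokines, 8 were higher in pool 2, with a median of 1.10 and Tgtp1 as the exception. Over all 10939 probes above background in both pools, 6224 were higher in pool 1, and the median was -0.066. The largest differences were those of Gbp4 (1.99) and Cxcl9 (1.41) toward pool 2, and of Isg15 (-0.92) and Ifit1 (-0.89) toward pool 1. The HSC pools leaned the other way, since 6 of 8 type I antiviral genes were higher in pool 2 (median 0.28) and 4 of 6 GTPases and chemokines in pool 1 (median -0.44), while over all probes 5630 of 10030 were higher in pool 2 (median 0.053). In BM the medians were 0.072 and -0.19, and 0.12 over all probes. Each pool was measured once, so these differences have no test.

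**Figure D4:**
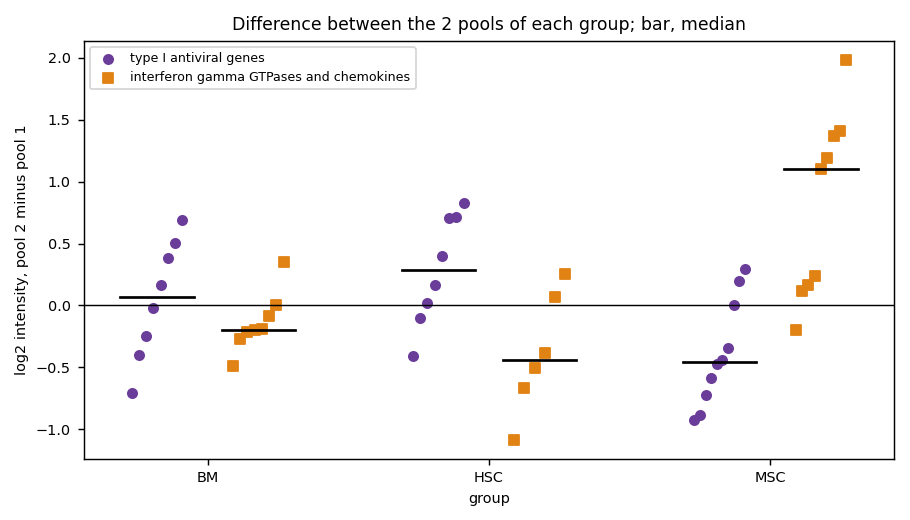
Log2 intensity of pool 2 minus pool 1 (vertical axis) in each group (horizontal axis) for genes above background in both pools, with circles for type I antiviral genes, squares for interferon gamma GTPases and chemokines, and bars for medians. In MSC most circles lie below 0 (median -0.46) and most squares above it (median 1.10).

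Genes of T and NK cells were high in the second MSC pool. Of 12 such genes with a probe, 10 had values on all arrays, and their mean was 11.38 on MSC replicate 2 and 9.61 to 9.97 on the other 5 arrays, and 9 of the 10 were highest on MSC replicate 2. Cd3g, a chain of the T cell receptor complex, gave 12.95 there and 10.48 to 10.82 elsewhere, and Lck, the kinase of that receptor, gave 13.70 and 11.46 to 11.87. Ifng itself was above background on MSC replicate 2 only, with 8.94 there and 6.81 to 7.27 elsewhere. Ifnb1 was so on MSC replicate 1 only, with 7.70 there and 6.70 to 7.45 elsewhere, little above the spots not above background. Neither gene was tested. In marrow pools a larger share of a cell type and more RNA per cell cannot be told apart. Without MSC replicate 2 the median log2 fold change of the GTPases and chemokines was 1.18 against BM (1.25 with it) and 0.35 against HSC (0.65 with it), and that of the type I antiviral genes was 1.35 and 0.44 (1.17 and 0.45 with it). On the HSC arrays and MSC replicate 1 the mean of the T and NK cell genes was within or below the range of BM. The part of these cells in the interferon values of any recipient array was not tested.

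Markers of other cells that carry or make interferon responses were set beside these values. The 9 monocyte and macrophage genes had means of 11.36 to 11.70 in BM, 11.20 to 11.65 in HSC and 11.36 to 11.79 in MSC recipients, so that the groups overlapped. The 7 genes of plasmacytoid dendritic cells, the main makers of type I interferon, had means of 10.20 and 10.26 in BM, 9.81 and 9.85 in HSC, and 8.44 and 8.78 in MSC recipients. The MSC arrays were the lowest, and Klk1, Cox6a2 and Ly6d of the list fell against BM in the limma test. Tcf4, Ccr9 and Irf8, with log2 fold changes of -1.34, -0.63 and -0.46, did not pass it, and Runx2 was above background on no array. Irf8 had a log2 fold change of 0.069 in MSC against HSC. Ly6d also marks early B cells, and the defining genes Siglech, Spib and Bst2 had no probe. The 9 B cell genes had means of 10.38 to 10.87 in BM and HSC and of 8.43 and 8.81 in MSC recipients. The part of either list in the interferon values was not tested.

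**Figure D5:**
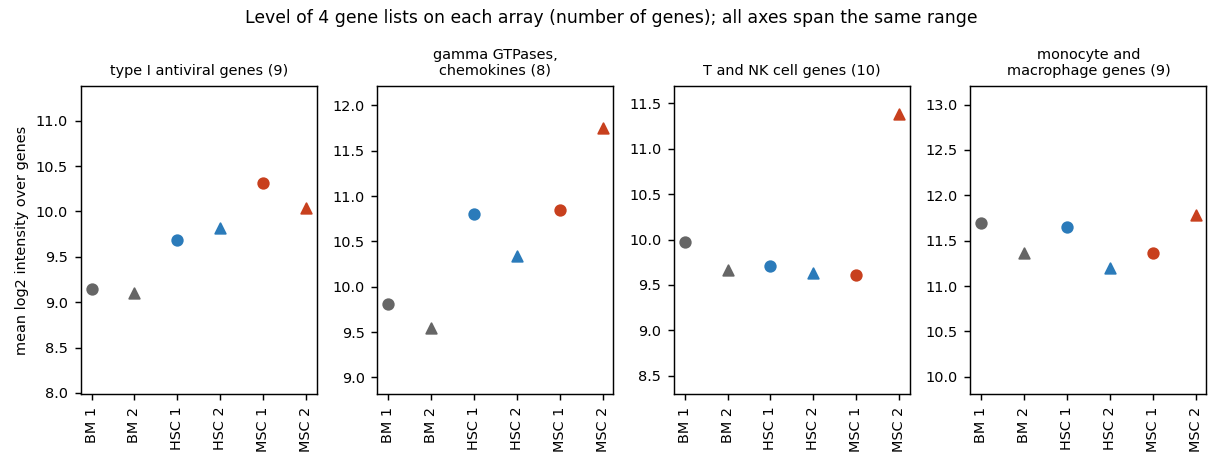
Mean log2 intensity (vertical axes, all of the same span) of 4 gene lists on each array (horizontal axes), over the genes with a value on all arrays, with circles for pool 1 and triangles for pool 2. The type I antiviral genes are higher on the recipient arrays, the GTPases and chemokines are highest on MSC replicate 2 (11.75), the T and NK cell genes stand out on that array (11.38), and the monocyte and macrophage genes overlap between groups.

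Further genes of the interferon pathways were read from a list of 89, of which 76 had a probe. None passed the adjusted test in any comparison, among 65 tested in MSC against HSC, 65 in MSC against BM and 59 in HSC against BM, and their medians were 0.27, 0.21 and 0.045. At an unadjusted p under 0.05 there were 10 higher and 4 lower, 13 higher and 3 lower, and 5 higher and 1 lower, in that order, while the shares of all probes were 7.01% and 9.91%, 5.39% and 7.01%, and 3.03% and 2.34%. Zbp1, a sensor of left-handed nucleic acids, gave 9.80 and 9.68 in BM, 11.12 and 10.89 in HSC, and 10.90 and 11.22 in MSC recipients. Its recipient arrays lay more than 1 unit above BM and overlapped each other, with log2 fold changes of 1.32 for MSC (limma adjusted p = 0.0828) and 1.27 for HSC against BM. Ptpn6, a phosphatase that dampens cytokine receptors, and Irf4, a factor of lymphocytes, had the largest changes in MSC against HSC (1.87 and -1.69), and Ciita, the master regulator of MHC class II genes, had a log2 fold change of -1.14 in HSC against BM, which did not pass the test.

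The DNA before the start sites was searched for the elements named above. Promoter windows of 250 bases before the start site were found for 34 of the 40 genes (RefSeq, build GRCm38.p6), and the ISRE core, taken as GAAA, any 2 bases and GAAA again on either strand, was in the windows of 13 of the 34 genes, against 3.46% of 27025 genes in all. They were Cxcl10, Gbp2, Gbp3, Ifit1, Ifit3, Igtp, Irgm1, Isg15, Oas1a, Rsad2, Socs1, Stat2 and Tgtp1. The core was found in 6 of 8 GTPase and chemokine genes and in 4 of 8 type I antiviral genes, so it did not divide the groups along their names. The GAS core TTCNNNGAA was in the windows of 9 of the 34 genes and of 8.13% of all. The 2 motifs differ, although their matches can share bases. Cxcl9 had neither core in its window, which says nothing of sites farther away.

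The windows of 4 of these genes are shown, 1 with a call (Tgtp1), 1 with the smallest p between the recipient groups (Cxcl10) and Ifit1 and Ifit3, which have 2 copies of the element, with the ISRE core, which reads TTTC, 2 bases and TTTC where it lies on the other strand, in capitals. They lie at chr11:48992247-48992496 on the minus strand (Tgtp1), chr5:92348890-92349139 on the minus strand (Cxcl10), chr19:34640639-34640888 on the plus strand (Ifit1) and chr19:34583279-34583528 on the plus strand (Ifit3). All are promoter sequence upstream of the annotated start, written 5′ to 3′ on the strand of the gene. The core begins 77 bases before the start in Tgtp1 and 213 in Cxcl10, whereas the copies begin 104 and 85 bases before it in Ifit1 and 156 and 122 in Ifit3.
Tgtp1: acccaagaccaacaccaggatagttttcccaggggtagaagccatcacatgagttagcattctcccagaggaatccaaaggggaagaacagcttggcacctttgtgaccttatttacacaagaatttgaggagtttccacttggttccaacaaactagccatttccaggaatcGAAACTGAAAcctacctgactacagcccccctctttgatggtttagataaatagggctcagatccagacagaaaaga
Cxcl10: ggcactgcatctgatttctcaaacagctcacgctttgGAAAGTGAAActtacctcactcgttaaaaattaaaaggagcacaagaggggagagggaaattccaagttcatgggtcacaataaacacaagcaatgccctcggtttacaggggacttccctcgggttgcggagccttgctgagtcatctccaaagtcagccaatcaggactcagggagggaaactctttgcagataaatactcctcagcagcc
Ifit1: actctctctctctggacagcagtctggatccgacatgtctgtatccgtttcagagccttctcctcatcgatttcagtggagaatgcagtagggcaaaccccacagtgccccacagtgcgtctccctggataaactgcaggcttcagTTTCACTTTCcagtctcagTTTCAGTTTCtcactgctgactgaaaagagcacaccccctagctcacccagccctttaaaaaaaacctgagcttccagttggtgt
Ifit3: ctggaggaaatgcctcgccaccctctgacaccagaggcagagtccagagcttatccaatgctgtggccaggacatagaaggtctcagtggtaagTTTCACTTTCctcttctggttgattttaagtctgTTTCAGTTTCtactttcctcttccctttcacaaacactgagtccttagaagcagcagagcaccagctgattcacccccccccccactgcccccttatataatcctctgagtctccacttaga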

How the data were processed

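The authors deposited the scanner output of 6 arrays, which gives the mean intensity, the local background intensity and a quality mark of each spot, and a table of log2 values that they had normalized, used here only as an alternative. The background correction and normalization behind that table are not given in the sources used here. From the intensities, spot mean and background median were corrected with normexp (offset 50). Control spots and spots marked as defective, contaminated or excluded were left out, and log2 was taken before quantile normalization. Genes were named through the sequence record or gene number in the deposited output (39 of the 40), and Trim25 through the array annotation. The test was limma 3.58.1 (R 4.3.3) over all 6 arrays (3 residual degrees of freedom, two-sided), with Benjamini-Hochberg adjustment over all tested probes of a comparison and 0.05 as threshold. Where neither array of a group was above background, the fold is a lower bound. Precision is limited by 2 arrays per group. Each array was on a slide of its own, and 1 label calls the array type human where the methods call it mouse. The steps were tested on simulated data.

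The 42 genes, the further pathway genes and the marker lists were chosen with earlier results of these data known. All members could be named, with values per array for those past the threshold and the 3 largest changes of MSC against HSC in each role. One further pathway gene that the rule would name is not reported here. The other members named were chosen after their values were seen. Alternatives changed the background correction, offset, normalization, filter, source of values, arrays in the fit, variance trend, block and test, or left out each array. Drawings were made with matplotlib 3.10.9 in Python 3.11.15.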

Additional observations from a re-analysis of the deposited data

How the results depend on the processing

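The direction of the medians of the type I antiviral genes and of the GTPases and chemokines in each comparison, and of the log2 fold changes of Tgtp1 and Cxcl9 in MSC against BM, was kept under every alternative run. Single genes with small fold changes were less stable, and the sign changed in at least 1 setting for 17 genes in MSC against HSC (Usp18 from -0.20 to 0.64 and Socs1 from -0.24 to 0.73), 12 in MSC against BM and 13 in HSC against BM. In MSC against BM the count of called interferon-induced genes fell from 2 to 0 with background subtraction and a floor, with the deposited log2 values, without the filter on dim probes and with only the 4 arrays compared, and it was 3 with median scaling. Leaving out 1 array gave 0 to 2 calls. It was 1 without BM replicate 1 (Rtp4), 2 without MSC replicate 1 (Gbp4 and Cxcl9), and 0 without BM replicate 2, HSC replicate 1, HSC replicate 2 or MSC replicate 2. In HSC against BM, 1 gene (Tgtp1) was called with a trend in the variance. Over the 18 settings Tgtp1 was called in 7 (limma adjusted p 0.0054 to 0.0783) and Cxcl9 in 8 (0.0081 to 0.152). The cause of these changes was not tested.

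The median log2 fold change of the type I antiviral genes in MSC against HSC was 0.27 with median scaling and 0.14 to 0.57 when 1 array was left out, and in MSC against BM it was 1.33 over probes above background on all 6 arrays and 0.85 to 1.40 when 1 array was left out. In HSC against BM it was 0.81 with background subtraction, 0.78 with median scaling, 0.82 with the deposited values, 0.83 over probes above background on all 6 arrays, and 0.30 to 1.03 when 1 array was left out. The median of the GTPases and chemokines, when 1 array was left out, was 0.33 to 0.98 in HSC against BM, 0.35 to 1.10 in MSC against HSC and 1.18 to 1.67 in MSC against BM.

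The deviations of same-numbered arrays from their group means correlated with r = 0.57 between BM and HSC over 8848 probes. Between BM and MSC r was -0.28, and between HSC and MSC it was -0.20, so the sign differed between pairs of groups. Whether the pool numbers pair the arrays was not tested. With the pool number as a replicate block, 0 interferon-induced genes were called in MSC against BM, where the adjusted p from limma was 0.0783 for Tgtp1 and 0.152 for Cxcl9. With this block 0 interferon-induced genes were called in the other comparisons.

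With 2 arrays per group a change has to be large against the spread between pools to pass, and genes near background have compressed fold changes because of the offset. The groups lack irradiated mice without cells, and the time of sampling is not settled.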
